A study of Mus musculus with 8 samples.

Results

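The genes described here build, sense and move cholesterol. They were taken by name from a list of 32 genes, by their known roles and not by a cut on measured values: 17 enzymes of sterol synthesis, 9 regulators that sense sterols, and 6 genes of cholesterol transport and storage. Of these, 30 had a row among the 21165 rows of the count table, and each of the 30 had 80 counts or more summed over the 8 libraries. Hmgcs1 and Tm7sf2 are not analysed here. The 30 measured genes were 15 synthesis enzymes, 9 regulators and 6 transport or storage genes, and all of them were among the 12699 genes tested.

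Cholesterol is made from acetyl-CoA through mevalonate, farnesyl pyrophosphate, squalene and lanosterol. When sterols are scarce in the endoplasmic reticulum, SCAP escorts the membrane-bound SREBP proteins to the Golgi, where the proteases encoded by Mbtps1 and Mbtps2 release their active part, while the INSIG proteins hold SCAP back when sterols are plentiful. The developing brain makes most of its own cholesterol, because lipoproteins of the blood hardly cross the blood-brain barrier, and glia pass cholesterol on to neurons on particles that carry APOE.

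RNA was sequenced from the cortex of 8 mouse embryos at E18.5, shortly before birth. Neurons, progenitors, glia and vessels are mixed in such tissue, so every value is an average over the dissected cortex. KO embryos (n = 4) lacked Nuak1, a kinase of the AMPK family, through a constitutive allele, so that the gene was missing from every tissue of the embryo. WT embryos (n = 4) were the controls, and both groups were on a C57Bl/6JRj background and no treatment was given. In bulk tissue, fewer cells of a type and less RNA per cell cannot be told apart. The sample labels name 3 litters, where the series' design text counts 4, and they give the sex of each embryo, with 2 males among the KO and 1 among the WT. The columns of the table carry only the genotype and a running number (R1 to R4). Columns could not be tied to a litter, and sex was not read from the counts, so neither entered a fit.

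The targeted gene, Nuak1, followed the labels, with 14.2 ± 4.35 normalized counts in KO against 1204 ± 260 in WT (SD, 4 libraries each). Library totals ran from 11027082 to 27014858 counts in KO and from 9643711 to 18940484 in WT. The markers of cortical neurons, all 8 of 8 tested, summed to 57510 to 64040 normalized counts in KO and 54420 to 58920 in WT, and those of radial glia and astrocytes (8 of 8) to 23140 to 25510 and 19500 to 30590. KO R1 stood apart in meningeal markers. Its 7 meningeal fibroblast markers, 5 of them tested, summed to 10050 normalized counts against 268.6 to 505.2 in the other 7 libraries. The 7 microglial markers also summed highest there, to 1003 against 506.8 to 719.5, and the endothelial markers (6 of 7 tested) to 5756 against 4096 to 4750. The 5 red blood cell markers (4 tested) were high in KO R1 and KO R2, with sums of 3168 and 4730. In KO R3 and KO R4 they summed to 1388 and 611.1, and in WT to 597.9 to 1419. Among them, Hba-a1 had 2123 and 3637 normalized counts in KO R1 and KO R2, against 163.9 to 348.8 elsewhere. Hbb-b1 was instead highest in KO R3 (826.8). The 4 choroid plexus markers had too few counts to be tested, with at most 26.91 normalized counts in sum in any library. The part of these markers in the results below was not tested, and values without KO R1 are given where a direction turned or a value moved by over 1.5 times.

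Promoter sequences are shown first because the synthesis genes are switched on together through SREBP and its partner NF-Y, which binds the letters CCAAT, and SP1, which binds GC boxes. RefSeq windows of 250 bases before to 50 bases after the start (GRCm38.p6) were found for 25 of the 30 genes, not for Fdps, Fdft1, Sqle, Npc1 and Abcg1. The letters CCAAT stood on either strand in 11 of the 12 synthesis genes with a window, in 4 of 9 regulators and in 2 of 4 transport genes, against 41.1% of all 27025 genes with a window. Counted by window, 11 of 15 windows of synthesis genes held it, against 37.4% of 32851 windows. The GC box GGGCGG was found in 11 of 12 synthesis genes, 6 of 9 regulators and 3 of 4 transport genes, against 38.2% of all genes. A core of the sterol response element, CACNCCAC, stood in 1 synthesis gene (Acat2) and 1 regulator (Insig1), against 7.12% of all genes. Both strands were searched and the 3 sets of letters were counted apart, with no test. These matches are letters in a window, not binding sites. Sterol response elements with letters other than this core were not sought, so a window without it may still hold one. Below are 150 bases from the windows of the 4 synthesis genes with a window and an unadjusted p under 0.05 in the comparison of KO with WT, and of Insig1, with CCAAT (or ATTGG, the same letters on the other strand) and the sterol response core in capitals. They lie at chr5:114444119-114444268 (+ strand, Mvk), chr8:122443423-122443572 (- strand, Mvd), chr10:76531455-76531604 (+ strand, Lss), chrX:72918371-72918520 (+ strand, Nsdhl) and chr5:28071262-28071411 (+ strand, Insig1).
Mvk: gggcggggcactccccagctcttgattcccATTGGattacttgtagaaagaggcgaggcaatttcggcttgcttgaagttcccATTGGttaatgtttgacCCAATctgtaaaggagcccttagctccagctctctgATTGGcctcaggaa
Mvd: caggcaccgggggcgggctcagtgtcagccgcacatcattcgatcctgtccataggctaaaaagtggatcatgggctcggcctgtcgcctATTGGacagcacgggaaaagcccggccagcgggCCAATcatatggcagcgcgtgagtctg
Lss: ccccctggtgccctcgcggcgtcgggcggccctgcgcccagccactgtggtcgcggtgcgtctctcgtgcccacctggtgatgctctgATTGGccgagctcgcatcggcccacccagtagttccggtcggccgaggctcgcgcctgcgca
Nsdhl: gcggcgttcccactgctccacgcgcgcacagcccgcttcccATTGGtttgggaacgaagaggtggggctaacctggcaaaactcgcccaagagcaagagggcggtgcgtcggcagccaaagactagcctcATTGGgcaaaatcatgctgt
Insig1: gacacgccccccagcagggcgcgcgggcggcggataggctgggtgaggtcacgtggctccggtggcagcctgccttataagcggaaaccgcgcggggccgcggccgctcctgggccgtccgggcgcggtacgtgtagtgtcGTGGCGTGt
The stretch of Mvk held 4 such boxes, those of Mvd and Nsdhl 2 each, and that of Lss 1. Insig1 had no CCAAT in its stretch and 1 sterol response core, read on the opposite strand.

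Levels per length give the order of the members in WT cortex. Per kilobase of exon, WT cortex held 5203 ± 321 normalized counts of Fdps, the farnesyl pyrophosphate synthase, 2441 ± 137 of Fdft1, the squalene synthase, and 1178 ± 39.2 of Sqle, the squalene epoxidase (SD, n = 4). The level of Srebf2, which encodes the SREBP most devoted to sterol genes, was 1153 ± 46.2 per kilobase and did not differ from that of Sqle beyond the spread. Below it came Acat2 (958.7 ± 35.2) and Cyp51 (893.4 ± 61.3), whose spreads also met. At the low end, Soat1, which esterifies cholesterol for storage, and Hsd17b7, a sterol ketoreductase, stood at 54.98 and 54.29 per kilobase, and the liver X receptor gene Nr1h3 at 9.73 ± 2.76. Lengths were those of all annotated exons of a gene joined, so a gene with long rare transcripts, such as Lss with 10787 bases, is set too low on this scale. Some members have near copies elsewhere in the genome, of 95% identity or more, between which reads may have been split. Fdps had 5, Idi1 2, and Acat2, Fdft1 and Insig1 1 each, and the values of these genes are uncertain to that extent. The other 25 had none.

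**Figure D1:**
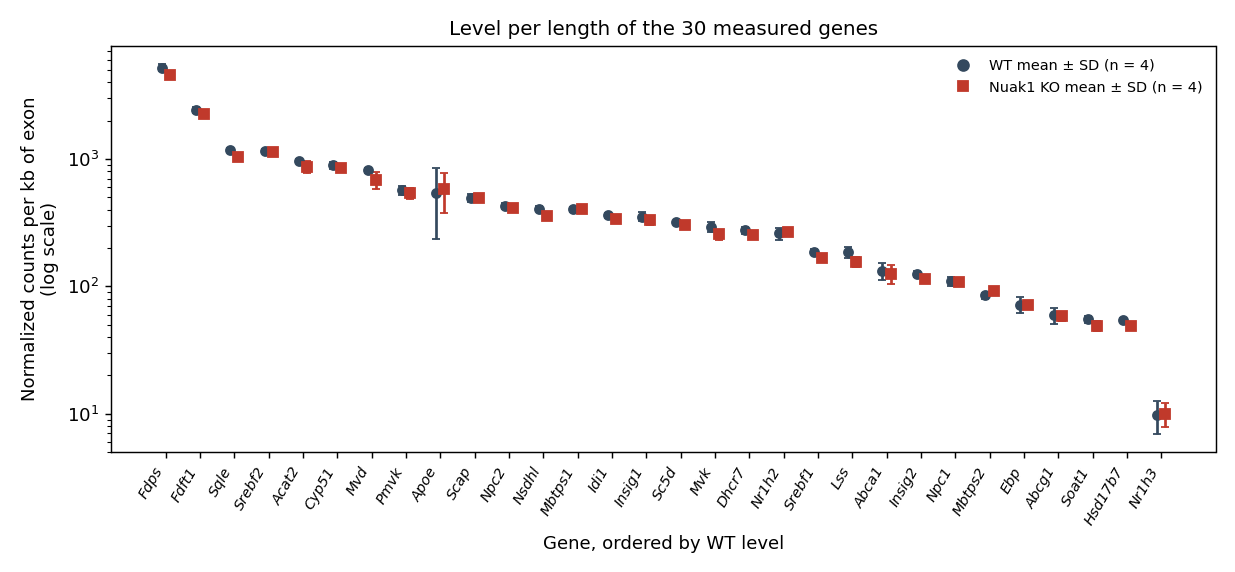
Level of each of the 30 measured genes in normalized counts per kilobase of exon (log axis), with genes in order of their WT level. Circles are WT and squares KO means, bars are SD (n = 4 each). Levels run from 5203 for Fdps to 9.73 for Nr1h3 in WT, and Apoe has the widest bars.

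All 15 synthesis enzymes were lower in KO than in WT cortex, or 14 of them under other scalings, where Ebp lay just above 0. Their log2 fold changes (KO minus WT) ran from -0.25 to -0.0048, with a median of -0.15, beside a median of -0.01 over all 12699 genes tested, of which 54.4% were lower in KO. In 6 of the 15 the unadjusted p of edgeR's quasi-likelihood test was under 0.05 (Mvk, Mvd, Fdps, Sqle, Lss and Nsdhl), and all of these were lower in KO, beside 3.18% of all genes tested that were lower and 4.51% that were higher at that level. None of the 30 members passed an adjusted p of 0.05, a level that 0.0709% of all genes reached. The smallest Benjamini-Hochberg adjusted p among the members was 0.475 in edgeR's quasi-likelihood fit, while 7 of the 30 had an unadjusted p under 0.05. DESeq2 likewise gave 0 members at an adjusted p of 0.05 (0.543% of all genes passed it) and 6 at an unadjusted p under 0.05. The differences below are thus differences between these 8 libraries that did not pass adjustment over all genes. Beside the adjusted p, each gene described library by library, except the marker Gfap, has the two-sided p of an exact permutation test. This test compares group means of log2 normalized counts, with 1 added to each count. Its p cannot go below 0.0286 with 4 libraries against 4.

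The 6 measured genes of the first steps act from acetyl-CoA to farnesyl pyrophosphate, and their median log2 fold change was -0.17. Mvk encodes mevalonate kinase (NCBIM37 chromosome 5, 114894278 to 114910600). It had 642, 628, 698 and 763 normalized counts in KO R1 to R4 and 703, 801, 753 and 873 in WT R1 to R4. The highest KO library thus lay above the lowest WT libraries, and the groups overlapped. The log2 fold change was -0.19 (SE 0.0856, 95% interval -0.38 to -0.00079, adjusted p = 0.646 by edgeR, exact permutation p = 0.114).

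Mvd encodes the decarboxylase that makes isopentenyl pyrophosphate (chromosome 8, 124957496 to 124967322). Its normalized counts were 1035, 1098, 1249 and 1443 in KO R1 to R4 and 1396, 1510, 1381 and 1451 in WT. The first 3 KO libraries lay below every WT library, and KO R4 fell among the WT values. The difference was -0.24 on the log2 scale (SE 0.0936, interval -0.45 to -0.04, adjusted p = 0.611 by edgeR, exact permutation p = 0.0857). KO libraries of Mvd also spread more widely than WT ones, with SDs of 181.5 and 58.6.

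Fdps joins isoprene units into farnesyl pyrophosphate, from which sterols, ubiquinone and prenyl anchors branch (chromosome 3, 88897514 to 88905881). It was read at 5369, 5403, 5487 and 6058 normalized counts in KO R1 to R4 and at 6225, 6637, 5961 and 6837 in WT. Only KO R4 exceeded any WT library, namely WT R3. The log2 fold change was -0.20 (SE 0.0609, interval -0.34 to -0.07, adjusted p = 0.489 by edgeR, exact permutation p = 0.0571).

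The other genes of these steps had smaller differences. Acat2, the cytosolic acetoacetyl-CoA thiolase, had a log2 fold change of -0.15 with an interval of -0.31 to 0.01. Idi1, the isopentenyl pyrophosphate isomerase, and Pmvk, phosphomevalonate kinase, had -0.09 and -0.06. None of these 3 had an unadjusted p under 0.05 by edgeR. Without KO R1, Acat2 was at -0.10 and Pmvk at -0.01.

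**Figure D2:**
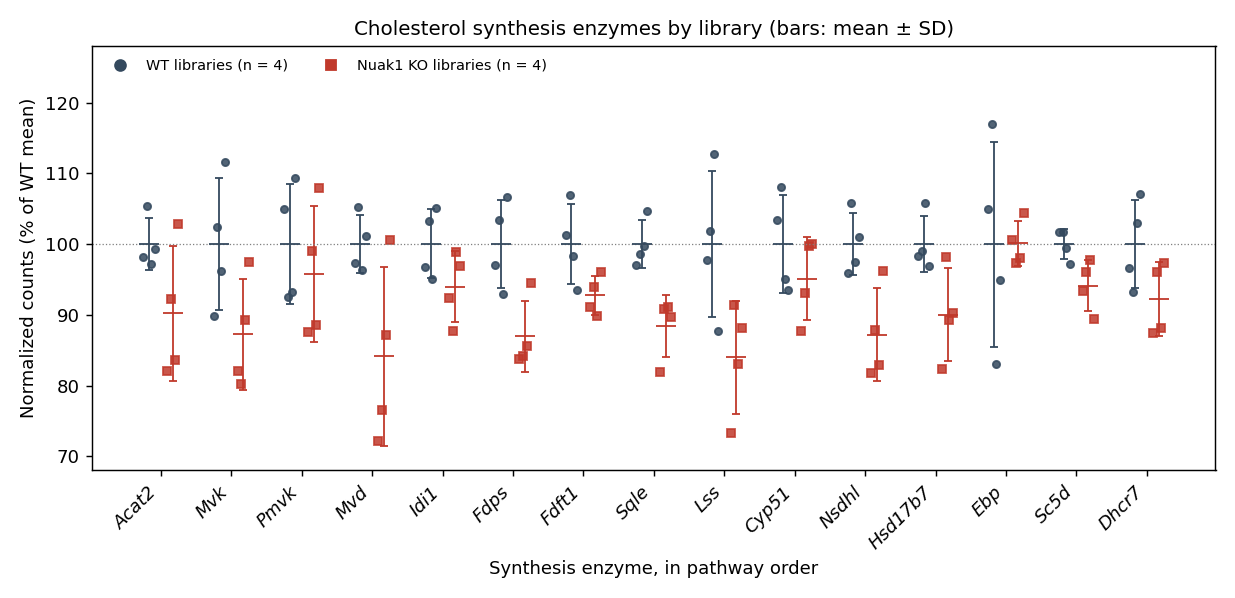
Normalized counts of the 15 synthesis enzymes in pathway order, as a percent of each gene's WT mean, by library. Circles are WT and squares KO libraries, horizontal lines are means and bars SD (n = 4 each). The groups do not overlap for Sqle, with KO libraries from 5350 to 5953 normalized counts and WT libraries from 6338 to 6841, and overlap for the other 14.

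Squalene is formed, oxidised and closed into lanosterol by the products of Fdft1, Sqle and Lss. Sqle is a rate-limiting enzyme of the later pathway (chromosome 15, 59146632 to 59162747). Its normalized counts were 5350, 5936, 5953 and 5862 in KO R1 to R4 and 6338, 6438, 6515 and 6841 in WT R1 to R4. Every KO library lay below every WT library, and Sqle was the only one of the 30 members for which this was so, beside 1.85% of all genes tested. No member had every KO library above every WT library, beside 2.64% of all genes. The log2 fold change of Sqle was -0.18 (SE 0.0522, interval -0.29 to -0.06, adjusted p = 0.475 by edgeR). The exact permutation test gave p = 0.0286, the smallest it can give.

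Lss encodes lanosterol synthase (chromosome 10, 75994333 to 76019883). It had 1463, 1826, 1658 and 1761 normalized counts in KO R1 to R4 and 1951, 2035, 2251 and 1752 in WT R1 to R4. WT R4 lay among the KO libraries and the other WT libraries above all of them. Its log2 fold change of -0.25 (SE 0.0858, interval -0.44 to -0.06, adjusted p = 0.554 by edgeR, exact permutation p = 0.0857) was the largest of the members. In this fit Lss was also the only member past an unadjusted p of 0.05 and a log2 fold change beyond 0.25 together, the thresholds that the study set for DESeq2, which 1.8% of all genes passed in the same direction. It was no longer beyond 0.25 in log2 fold change under any other test, scaling or filter (-0.246 with DESeq2, -0.2425 to -0.246 with edgeR), so this call is lost there, and it was -0.19 without KO R1 or without WT R3, -0.247 without KO R3 and -0.244 without WT R2. Fdft1 had a log2 fold change of -0.11 (exact permutation p = 0.0857), and WT R4 was again the lowest WT library, at 6530.

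The 6 measured genes of the last steps turn lanosterol into cholesterol, and their median log2 fold change was -0.10. Nsdhl, a sterol dehydrogenase of C4 demethylation, lies on the X chromosome (70163896 to 70203853). It had 953, 1023, 966 and 1120 normalized counts in KO R1 to R4 and 1117, 1232, 1135 and 1177 in WT. KO R4 alone passed a WT library, WT R1. The log2 fold change was -0.20 (SE 0.0659, interval -0.34 to -0.05, adjusted p = 0.551 by edgeR, exact permutation p = 0.0571), and the part of sex, with unequal numbers of males, was not tested. The remaining 5 genes ran from -0.15 for Hsd17b7 to -0.0048 for Ebp, a sterol isomerase also on the X chromosome, with Dhcr7, the last reductase, at -0.11, Sc5d, a sterol desaturase, at -0.09 and Cyp51, the lanosterol demethylase, at -0.07. Ebp was higher in KO by up to 0.0063 on the log2 scale with other scalings and filters, so that its direction is not settled, and its interval ran from -0.27 to 0.26. Without KO R1, Ebp lay at 3.84e-05 and Cyp51 at -0.03.

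**Figure D3:**
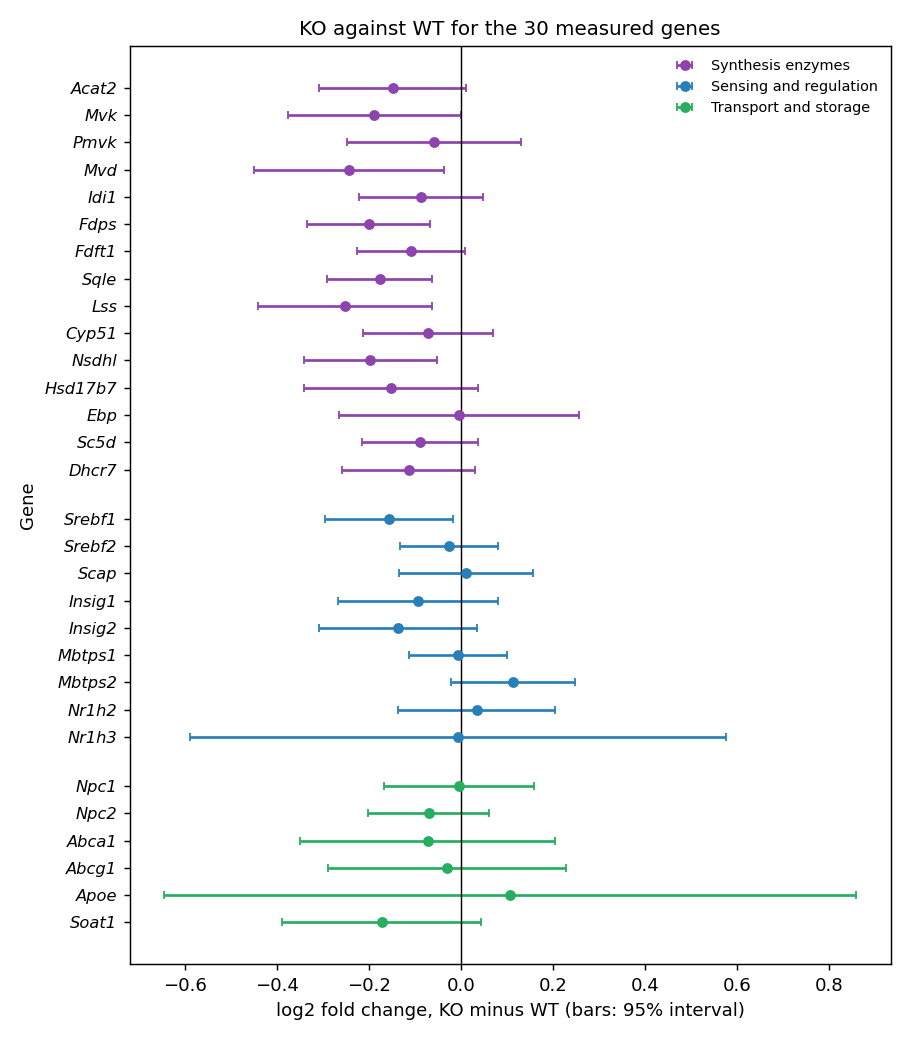
Log2 fold change (KO minus WT) of the 30 measured genes with 95% intervals from edgeR's quasi-likelihood fit (n = 4 each), ordered by role along the pathway. All 15 synthesis enzymes lie to the left of 0, with Ebp at -0.0048 and above 0 under other scalings, and Lss, Mvd and Fdps reach furthest. The transport gene Apoe has the widest interval.

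The enzymes were also compared as a group. Summed over the 15 genes, normalized counts were 30230, 32200, 31980 and 34070 in KO R1 to R4 and 35270, 36880, 34890 and 35750 in WT R1 to R4. The sums did not overlap, and KO R1 was the lowest and KO R4 the nearest to WT. Fdft1, Sqle and Fdps weigh most in these sums, with WT means of 6981, 6533 and 6415 normalized counts. The median log2 deviation of the 15 genes from their means over the 8 libraries was -0.16, -0.04, -0.08 and 0.02 in KO R1 to R4 and 0.06, 0.15, 0.04 and 0.12 in WT. KO R1 is the library with the high meningeal markers. Without it, 14 of the 15 enzymes were lower in KO, the median log2 fold change was -0.10 in place of -0.15, and 4 of the 15 had an unadjusted p under 0.05. Without KO R2, where the red blood cell markers were highest, 14 of the 15 were lower, with a median of -0.14. In that fit 4 had an unadjusted p under 0.05. Without KO R4, 7 of the 15 had an unadjusted p under 0.05. Of the 8 radial glia and astrocyte markers, 7 had a log2 fold change below 0, with a median of -0.14. Slc1a3, a glutamate transporter of these cells, had the largest difference (-0.30, adjusted p = 0.611 by edgeR, exact permutation p = 0.0857). Each of the 8 markers had its highest value in 1 library, WT R4. The median log2 deviation of these markers was -0.10 to -0.03 over the KO libraries and -0.36 to 0.46 over the WT libraries. Their sums, which Fabp7 dominates, overlapped between the groups. The part of these markers in the levels of the enzymes was not tested.

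**Figure D4:**
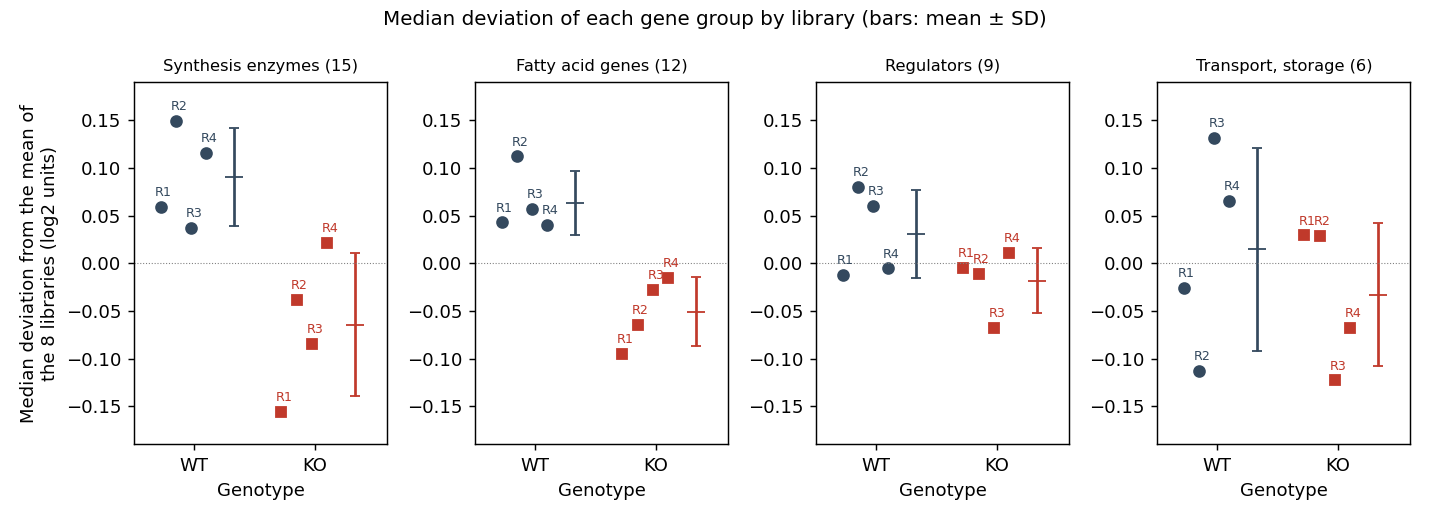
Median log2 deviation of each gene group from its mean over the 8 libraries, by library and genotype, with the number of genes in brackets. Circles are WT, squares KO, and the bars give the mean ± SD over 4 libraries. For synthesis enzymes and fatty acid genes the median of every KO library lies below that of every WT library, while regulators and transport genes overlap. The summed normalized counts of the fatty acid genes, not drawn, overlapped, with 50950 to 55910 in KO and 55870 to 58360 in WT.

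The regulators did not all share the direction of the synthesis enzymes. Of the 9, 6 were lower and 3 higher in KO, beside 54.4% of all genes tested that were lower. Mbtps1 and Nr1h3, 2 of the 6, lay above 0 under other scalings. The median log2 fold change of the 9 was -0.0069, with a range of -0.16 to 0.11. The median lay on either side of 0 under the alternatives, from -0.05 without KO R4 to 0.0086 without KO R3, with -0.012 without KO R1. Their summed normalized counts were 14700 to 15450 in KO and 14930 to 15630 in WT. Whether the regulators differ from the synthesis enzymes in their response was not tested.

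Srebf2 had 5612, 5484, 5623 and 5867 normalized counts in KO R1 to R4 and 5933, 5461, 5941 and 5675 in WT R1 to R4. The lowest library was a WT one, and the groups overlapped over most of their range. Its log2 fold change of -0.03 (SE 0.0488) had an interval of -0.13 to 0.08 (adjusted p = 0.932 by edgeR, exact permutation p = 0.457). Scap had 2443, 2693, 2454 and 2745 in KO and 2527, 2333, 2611 and 2802 in WT, with a log2 fold change of 0.01 (SE 0.0663, interval -0.14 to 0.16, adjusted p = 0.984 by edgeR, exact permutation p = 0.886). Both extremes of Scap were WT libraries. Without KO R1 the log2 fold changes of Srebf2 and Scap were -0.02 and 0.04.

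Srebf1, whose product serves mainly the fatty acid genes, was the regulator with an unadjusted p under 0.05 (chromosome 11, 60012591 to 60036083). Its normalized counts were 995.5, 895.5, 897.3 and 996.9 in KO R1 to R4 and 995.7, 1056, 1053 and 1122 in WT. Of the KO libraries, R4 alone passed the lowest WT library, and only narrowly. The log2 fold change was -0.16 (SE 0.0632, interval -0.30 to -0.02, adjusted p = 0.629 by edgeR, exact permutation p = 0.0571). With upper quartile scaling, or without any 1 of KO R2, KO R3, WT R2, WT R3 and WT R4, the unadjusted p was no longer under 0.05.

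The INSIG genes are themselves sensors, and Insig1 is a target of SREBP. Insig1 had 973.7, 827.1, 815.6 and 885.6 normalized counts in KO R1 to R4 and 832.3, 963.9, 1012 and 927.3 in WT. The KO R1 library stood among the high WT values and WT R1 among the low KO values. Its log2 fold change was -0.09 (SE 0.0788, interval -0.27 to 0.08, adjusted p = 0.836 by edgeR, exact permutation p = 0.314). Insig2 had 401, 430.3, 368.8 and 380.4 in KO and 407.9, 438.2, 461.1 and 425.6 in WT, a log2 fold change of -0.14 (SE 0.0779, interval -0.31 to 0.03, adjusted p = 0.745 by edgeR, exact permutation p = 0.0857). Only KO R2 of Insig2 lay among the WT libraries.

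Both proteases that release SREBP were measured. Mbtps1 had a log2 fold change of -0.0069, which turned above 0 in other scalings, and Mbtps2, on the X chromosome, one of 0.11 (interval -0.02 to 0.25, exact permutation p = 0.0571), the highest of the 30. The liver X receptors, which sense oxysterols and drive cholesterol export, were at 0.03 (Nr1h2) and -0.0066 (Nr1h3). Nr1h3 had 201 counts in the whole table and a wide interval, from -0.59 to 0.58, and it was at 0.07 without KO R1. Without that library Mbtps1 was at -0.01 and Nr1h2 at 0.02.

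Of the 6 transport and storage genes, 5 were lower and 1 higher in KO, and none had an unadjusted p under 0.05. Their median log2 fold change was -0.05, and it ran from -0.09 (without WT R1) to -0.02 (without KO R3) when 1 library was left out, with -0.08 without KO R1. Soat1 was at -0.17 (exact permutation p = 0.0857), the exporters Abca1 and Abcg1 at -0.07 and -0.03, and Npc2 and Npc1, which carry cholesterol out of lysosomes, at -0.07 and -0.0051, the latter above 0 under other scalings. Abca1 was high in KO R1 (1634 normalized counts) and in WT R3 (1690), against 1171 to 1297 in the other 6 libraries. Without KO R1 its log2 fold change was -0.19 and without WT R3 it was 0.05. Without KO R1, Abcg1 was at -0.05 and Npc1 at 0.04.

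Apoe, the main lipoprotein of the brain, varied most of all members. It had 1621, 866.6, 780.4 and 1298 normalized counts in KO R1 to R4 and 1014, 800.9, 539 and 1926 in WT R1 to R4. The highest and the lowest library were both WT, and the coefficient of variation was 34.3% in KO and 56.3% in WT, against medians of 8.18% and 10.18% over all genes tested. The log2 fold change was 0.11 (SE 0.342, interval -0.65 to 0.86, adjusted p = 0.964 by edgeR, exact permutation p = 0.686), and it was 0.54 without WT R4, -0.11 without WT R3, -0.10 without KO R1 and -0.01 without WT R2. The astrocyte marker Gfap, looked at after the values of Apoe were seen, had 293.4, 167.2, 144.8 and 311.6 normalized counts in KO R1 to R4 and 228.1, 151.6, 105.7 and 545.6 in WT. Both genes were highest in WT R4 and lowest in WT R3, and they ranked the 8 libraries alike except that KO R1 and KO R4 changed places. The other markers of the same 8 were also highest in WT R4 but did not follow this order below it. Glul was near its lowest in WT R3 (2335 normalized counts, against 2326 in KO R2). In WT R3, where Apoe and Gfap were lowest, Slc1a3 (2944 normalized counts), Fabp7 (18405) and Aldoc (3003) had the second highest value of the 8 libraries. The part of glia in the level of Apoe was not tested.

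Genes next to the pathway were counted in 4 further lists, of which 38 of 44 listed genes could be tested. Over the 38, the median log2 fold change was -0.070, and 3 were lower at an unadjusted p under 0.05 by edgeR (3.18% of all genes). Without KO R1 the median was -0.046, and 1 was lower at that level (2.46% of all genes). Of the 12 fatty acid synthesis genes under SREBP-1, all 12 were lower in KO (54.4% of all genes were), with a median log2 fold change of -0.11 and 3 at an unadjusted p under 0.05, a level at which 3.18% of all genes were lower. Acss2, which makes acetyl-CoA from acetate, had 536.8, 494.1, 536.5 and 528.8 normalized counts in KO R1 to R4 and 576.4, 638.8, 619.6 and 714.5 in WT. Scd2, the stearoyl-CoA desaturase of the brain, had 5854, 5934, 5812 and 5994 in KO and 6191, 6188, 6528 and 6388 in WT. In both genes every KO library lay below every WT library, as in 1.85% of all genes tested. Their log2 fold changes were -0.28 (SE 0.0762, adjusted p = 0.44 by edgeR, exact permutation p = 0.0286) and -0.10 (SE 0.0441, adjusted p = 0.645 by edgeR, exact permutation p = 0.0286). The third gene, the elongase Elovl6, had a log2 fold change of -0.24 with overlapping libraries (exact permutation p = 0.0857).

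Of the 9 tested genes of the list of other sterol synthesis and SREBP-2 targets, 8 were lower and 1 higher, with a median of -0.09 on the log2 scale and none at an unadjusted p under 0.05. In 1 of them, the retinol dehydrogenase gene Rdh11, every KO library (845.6 to 877.5 normalized counts) lay below every WT library (880.6 to 971.2), as in 1.85% of all genes tested. Its log2 fold change was -0.09 (adjusted p = 0.7765 by edgeR). The 9 genes of the isoprenoid branches beside sterols, which use farnesyl pyrophosphate for other ends, divided into 5 lower and 4 higher with a median of -0.02. The 8 tested liver X receptor targets and turnover genes divided into 5 lower and 3 higher with a median of -0.03. None of the genes of these last 3 lists had an unadjusted p under 0.05, and none of the 38 genes passed an adjusted p of 0.05 by edgeR or by DESeq2.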

How the data were processed

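PolyA-selected RNA of 8 cortices was made into stranded libraries and sequenced as paired reads. According to the study's methods and the submitters' processing notes, the authors trimmed reads with cutadapt 1.13, aligned them to the mm9 assembly (NCBIM37) with TopHat2 2.0.13 and counted them per gene with HTSeq. The deposited values are raw counts per gene, each with a FasterDB identifier and a symbol, and are not normalized. The counter's version, the release of the annotation and the strand setting are not given in the sources used here, so overlapping genes cannot be told apart. Library totals are given in the report.

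Genes were kept by edgeR's filterByExpr (12699 of 21165 rows) and scaled by TMM. Normalized counts are counts divided by the effective library size, times its mean of 16518046. KO and WT were compared with edgeR 4.0.16 in R 4.3.3 (quasi-likelihood test, two-sided, Benjamini-Hochberg adjustment over all genes tested). DESeq2 1.42.0, other scalings, other filters and the loss of each library were alternatives. The fit was tested on simulated data. Libraries of a genotype differed by more than counting error (smallest chi-square per degree of freedom 5.36). The embryos are separate animals. Levels per kilobase use GENCODE exons on NCBIM37, which may differ from the exons that were counted. Copies were sought on NCBIM37 with minimap2.

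The rule for the members uses names and a minimum count, not differences between genotypes, but members, gene lists, marker lists and tests were all chosen with earlier results of these data known. Members are given library by library where the unadjusted p was under 0.05, the libraries did not overlap, or the gene encodes an SREBP, SCAP, an INSIG or APOE. Genes of the other lists are named where the unadjusted p was under 0.05 and libraries did not overlap. Elovl6, Rdh11, Gfap and the values of single libraries of Fdft1 and Abca1 were added after their values were seen.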

Additional observations from a re-analysis of the deposited data

Results flagged for a closer look

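In 5 of 66 groups of 4 libraries examined (members and the 3 role groups, in each genotype), 1 library stood far from the other 3 of its genotype by Dixon's test, where chance alone would give 3.3. In KO these were the Fdps value of R4 (6058 normalized counts, above the other 3), the Sqle value of R1 (5350, below the others), the Abca1 value of R1 (1634, above) and the Abcg1 value of R3 (207.3 normalized counts). In WT it was the Nr1h2 value of R2, at 1022 normalized counts. KO R1 is the library with the high meningeal markers, whose part in its Sqle and Abca1 values was not tested.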

How the results depend on the processing

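The 15 synthesis enzymes were lower in KO in 14 or 15 cases under every alternative, with a median log2 fold change of -0.16 (without WT R1) to -0.10 (without KO R1) when 1 library was left out, and 4 to 7 of them had an unadjusted p under 0.05. No member passed an adjusted p of 0.05 in edgeR or DESeq2 under any alternative. For the regulators the count at an unadjusted p under 0.05 was 0 with upper quartile scaling and 0 to 1 with 1 library left out, and for the genes outside the list it was 1 with no filter on low counts and 1 to 4 with 1 library left out. The transport genes lower in KO numbered 3 to 6 with 1 library left out, 3 of them without WT R3. Log2 fold changes near 0 turned positive. With DESeq2 in place of edgeR this was so for Nr1h3 (0.0045) and Npc1 (0.0020). With DESeq2's size factors it was Ebp (0.0019), Mbtps1 (8.96e-05), Nr1h3 (0.00017) and Npc1 (0.0017). Under upper quartile scaling the values were 0.0063, 0.0041, 0.0054 and 0.0043 for Ebp, Mbtps1, Nr1h3 and Npc1, with no filter 0.0045, 0.0029, 0.0073 and 0.0047, and with counts summing to 80 or more 0.0042, 0.0022, 0.0059 and 0.0035. With at least 10 counts in every library they were 0.0027 for Ebp, 0.0011 for Mbtps1 and 0.0024 for Npc1. Leaving out 1 library gave -0.0786 to 0.0845 for Ebp, -0.0334 to 0.0603 for Scap, -0.0241 to 0.0228 for Mbtps1, -0.112 to 0.145 for Nr1h3, -0.0593 to 0.0404 for Npc1, -0.187 to 0.0482 for Abca1, -0.0917 to 0.0728 for Abcg1 and -0.107 to 0.538 for Apoe. The cause was not tested. The other 171 values of single genes under other settings, and 231 with 1 library left out, kept their direction. No paired analysis was possible because no column is tied to a litter or an embryo. With 4 libraries a group and 0 members called, differences of this size were not separable from the spread after adjustment.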
